A study of Caenorhabditis elegans with 2 samples.

Results

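The larger piRNA cluster of Caenorhabditis elegans is a 3.8 Mb stretch near the right end of chromosome IV that holds most of the annotated piRNA genes of the worm. The regions described here are the SNPC-4 candidate regions of that stretch: every entry of the pooled candidate list whose summit, the position of highest signal, lay between IV 13500001 and 17300000 (build ce11, 1-based). There were 1069 such entries among 29976 on the 6 nuclear chromosomes. Chromatin was taken from whole young adult hermaphrodites of strain YL551, 60 hours after synchronisation as starved L1 larvae. These transgenic worms express SNPC-4 with a C-terminal GFP-FLAG tag, and the DNA sequenced was that precipitated with anti-GFP from sonicated chromatin (ChIP-seq). The samples form 1 group, with 2 biological replicates and no other condition. The sources used here do not say whether untagged SNPC-4 remained in the line. Germline and somatic nuclei of whole animals cannot be told apart.

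SNPC-4 is the large DNA-binding subunit, with Myb repeats, of SNAPc, the complex that activates small nuclear RNA genes and recruits RNA polymerases to their promoters (snRNA, small nuclear RNA). In the worm it is also known to act at spliced leader RNA genes and at piRNA genes. Worm piRNAs, whose genes carry 21ur names, guide the Argonaute PRG-1 in the germline to silence foreign and transposon transcripts. Each is made from its own short transcript, and many piRNA genes share an upstream sequence with the core CTGTTTCA.

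The authors' thresholded list holds regions that passed a filter on the irreproducible discovery rate (IDR), which keeps regions ranked alike in both replicates. Of the 1069 entries, 223 overlapped a region of that list (20.9%, exact 95% interval 18.5 to 23.4), against 13.1% of all 29976 nuclear entries. These 223 fell into 2 kinds. A total of 175 were themselves entries of the thresholded list and are called IDR peaks below (16.4%, 14.2 to 18.7), against 9.76% of all nuclear entries. The other 48 were weaker summits that touched an IDR region. Signal here is the score the authors' peak caller gave each region, in the pooled replicates unless a replicate is named. Its median was 145 at the IDR peaks, 38.0 at the 48 weaker neighbours and 22.9 at the 846 uncalled entries. The weakest IDR peak had a signal of 86.1, at the tRNA gene B0513.t1, and the strongest uncalled entry 84.4, in an intron of Y105C5B.11. Intervals cover counting error only, and neighbouring regions of 1 chromosome are not replicates, so no p-value is given.

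The outermost entries on either side of both edges were uncalled. The outermost entries inside had signals of 33.3 (summit IV 13501746) and 33.1 (IV 17288703), and the nearest entries outside 26.0 (IV 13499630) and 65.7 (IV 17318874). The last bin of 100 kb before the right edge nevertheless held 9 called entries, 7 of them IDR peaks. In the 500 kb before the left edge, 11 annotated piRNA genes and 13 IDR peaks were found. The 0.194 Mb from the right edge to the end of the chromosome held 29 piRNA genes, 39 candidate entries and 0 IDR peaks. This allows a share of up to 7.69% (3 divided by 39).

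A pair of repeated sequences recurred under the IDR peaks, and examples are printed first. Of the 10 strongest peaks, 3 lay on them. The most common was a GC-rich repeat, which in the 3 copies printed here had ends that are inverted copies of each other. It is called family A here, a group formed after the data had been seen by linking similar IDR peaks of the cluster. The 3 copies below lay under the strongest family A peaks whose outermost arms fitted in 300 bases. Capitals mark the longest exact stretch and its reverse complement (plus strand, RefSeq sequence of WBcel235, the same assembly as ce11).
Family A, chrIV:14525603-14525866: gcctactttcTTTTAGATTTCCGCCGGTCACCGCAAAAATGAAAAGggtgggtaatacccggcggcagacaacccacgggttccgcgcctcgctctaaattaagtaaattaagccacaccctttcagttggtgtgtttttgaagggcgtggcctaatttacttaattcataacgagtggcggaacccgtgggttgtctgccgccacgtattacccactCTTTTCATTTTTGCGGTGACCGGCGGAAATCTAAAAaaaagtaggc
Family A, chrIV:16592953-16593154: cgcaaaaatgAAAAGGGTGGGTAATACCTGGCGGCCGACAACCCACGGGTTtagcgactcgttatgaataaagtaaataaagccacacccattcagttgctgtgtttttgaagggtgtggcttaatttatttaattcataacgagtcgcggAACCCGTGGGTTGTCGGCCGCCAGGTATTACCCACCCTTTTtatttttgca
Family A, chrIV:15649356-15649584: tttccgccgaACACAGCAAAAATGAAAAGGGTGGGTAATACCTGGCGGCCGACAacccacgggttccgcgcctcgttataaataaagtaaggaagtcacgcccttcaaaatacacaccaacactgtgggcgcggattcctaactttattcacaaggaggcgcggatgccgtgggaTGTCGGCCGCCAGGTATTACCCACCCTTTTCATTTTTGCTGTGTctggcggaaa
The exact arms were 36, 41 and 44 bases long and enclosed 172, 100 and 121 bases.

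A smaller group, family B, had shorter exact arms of 19, 17 and 17 bases around 15, 51 and 15 bases. The exact arms of the copies at its strongest peaks are shown the same way. In the first, the summit at IV 15234417 lies in the same copy but beyond the stretch printed.
Family B, chrIV:15234337-15234400: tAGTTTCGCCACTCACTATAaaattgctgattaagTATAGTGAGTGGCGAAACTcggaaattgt
Family B, chrIV:14932738-14932842: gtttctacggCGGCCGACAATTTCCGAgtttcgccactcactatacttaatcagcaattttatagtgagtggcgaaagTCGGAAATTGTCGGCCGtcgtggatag
Family B, chrIV:14780724-14780792: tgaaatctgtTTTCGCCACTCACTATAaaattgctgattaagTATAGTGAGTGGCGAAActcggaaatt

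The piRNA genes close to strong peaks are shown by 4 examples, printed for comparison, each with the 60 bases before its 5' end, on the strand of the gene. Capitals mark the mature piRNA and, where it occurs, the motif CTGTTTCA. 21ur-1009 and 21ur-3338 lay nearest the strongest peaks with a summit within 100 bp of a piRNA 5' end. The summit near 21ur-1009 also lay 29 bp upstream of the snoRNA gene Y73F8A.1175. That near 21ur-3338 also lay 41 bp upstream of the snRNA gene smy-8. Both peaks are classed below at those genes. 21ur-916 and 21ur-13200 lay at the strongest peaks that had a piRNA gene within 250 bp and neither another RNA gene nor a repeat, and this pair was chosen after values were seen.
21ur-1009, chrIV:15234387-15234467, plus strand: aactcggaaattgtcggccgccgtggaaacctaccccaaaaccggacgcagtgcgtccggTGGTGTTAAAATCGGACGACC
21ur-3338, chrIV:13600789-13600869, plus strand: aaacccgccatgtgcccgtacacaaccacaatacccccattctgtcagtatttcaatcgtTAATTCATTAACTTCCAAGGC
21ur-916, chrIV:14445766-14445846, minus strand: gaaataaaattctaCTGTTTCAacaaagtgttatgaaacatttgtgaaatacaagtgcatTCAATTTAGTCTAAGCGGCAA
21ur-13200, chrIV:16181035-16181115, minus strand: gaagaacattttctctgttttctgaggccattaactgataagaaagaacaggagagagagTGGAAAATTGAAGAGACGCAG
Of these 4, the motif was found upstream of 21ur-916, starting 46 bp before the 5' end.

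The sequences under 3 of these peaks are also given, 50 bases to either side of the summit on the plus strand, with the central 11 bases in capitals. They are the strongest peak of the cluster, the peak beside both smy-8 and 21ur-3338, and the peak beside 21ur-916.
Summit IV 14327183, chrIV:14327133-14327233: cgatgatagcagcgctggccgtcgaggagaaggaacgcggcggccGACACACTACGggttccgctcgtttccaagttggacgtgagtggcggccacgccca
Summit IV 13600806, chrIV:13600756-13600856: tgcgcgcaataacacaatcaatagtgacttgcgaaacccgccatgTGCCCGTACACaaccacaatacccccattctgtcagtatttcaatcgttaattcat
Summit IV 14445570, chrIV:14445520-14445620: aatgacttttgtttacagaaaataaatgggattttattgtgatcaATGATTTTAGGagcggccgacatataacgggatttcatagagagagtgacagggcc
None of these 3 windows holds CTGTTTCA on either strand.

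IDR peaks were denser in the cluster than elsewhere, while candidate entries were not. There were 46.1 IDR peaks per Mb in the cluster, 31.4 in the smaller piRNA cluster of the same chromosome (IV 4800001 to 7000000), 25.5 in the rest of chromosome IV and 28.9 on the other nuclear chromosomes. Candidate entries numbered 281 per Mb in the cluster against 299.6 in the rest of the nuclear genome, a log2 ratio of -0.09. The share of entries that overlapped an IDR region was 13.6% (11.2 to 16.4) in the smaller cluster, 10.9% (9.92 to 11.96) in the rest of chromosome IV and 13.1% (12.6 to 13.5) on the other chromosomes. These 3 intervals lie below that of the larger cluster.

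Each replicate alone gave the same picture. Replicate 1 had 1023 entries in the cluster, of which 173 (16.9%, 14.7 to 19.3) were among its strongest nuclear entries, taken as many as the thresholded list holds. In replicate 2 this held for 171 of 1025 entries (16.7%, 14.4 to 19.1). Over all nuclear entries the share was 9.84% in replicate 1 and 9.84% in replicate 2. The density of these strongest entries was 45.5 per Mb in the cluster and 28.8 in the rest of the genome in replicate 1, and 45.0 against 28.8 in replicate 2. The gap between cluster and rest was thus wider than the difference between the replicates.

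**Figure D1:**
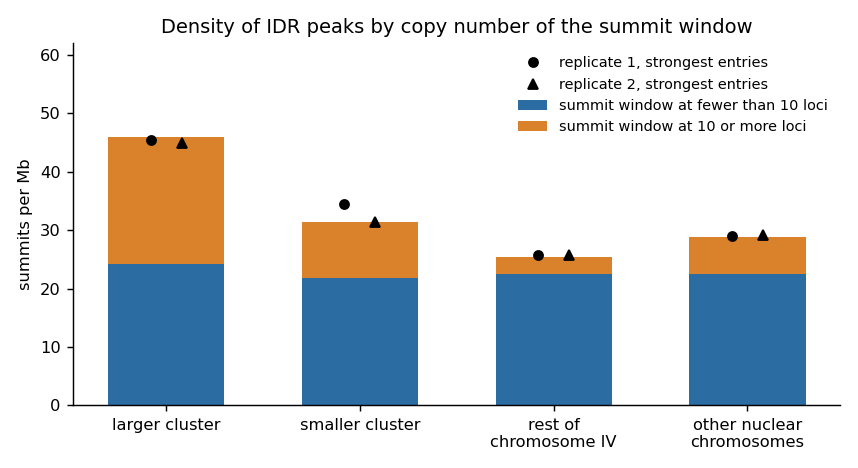
IDR peaks per Mb (bars) in 4 parts of the nuclear genome, split by the number of genome loci that match the 151 bases around the summit, with the density of the strongest entries of each replicate (points). The larger cluster stands at 46.1 per Mb against 25.5 to 31.4 in the other parts, and the blue lower sections lie between 21.8 and 24.2 in all 4.

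The level of signal differed less. The median over all candidate entries was 25.5 in the cluster and 27.3 in the rest of the nuclear genome, a log2 difference of -0.10. With replicate 1 alone the difference was 0.02 and with replicate 2 alone -0.02, so it was not stable in sign. Among IDR peaks the median was 145 in the cluster and 139.7 elsewhere.

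By density, the excess of peaks lay mostly in sequence that occurs many times in the genome. The 151 bases around each summit were searched against the nuclear genome, and loci aligning over at least 75 bases were counted. Of the 175 IDR peaks, 83 (47.4%, 39.8 to 55.1) had 10 or more such loci, against 581 of 2751 IDR peaks elsewhere (21.1%, 19.6 to 22.7). For uncalled entries the share was 9.34% in the cluster and 9.02% elsewhere. Peaks with 10 or more loci numbered 21.8 per Mb in the cluster and 6.02 per Mb elsewhere, a ratio of 3.63. Peaks with fewer numbered 24.2 and 22.5 per Mb, a ratio of 1.08. As a share of candidate entries, IDR peaks stood higher in the cluster in both kinds. Among entries with fewer than 10 loci they were 92 of 898 (10.2%, 8.34 to 12.4) against 2170 of 25972 elsewhere (8.36%, 8.02 to 8.70), with overlapping intervals. Among those with 10 or more they were 83 of 171 (48.5%, 40.8 to 56.3) against 581 of 2935 (19.8%, 18.4 to 21.3). Low-copy candidates were themselves sparser in the cluster, at 236 per Mb against 269. Reads from copies of a repeat can be alike, and how reads that fit several loci were placed is not given in the sources used here. Which copy carried the signal is therefore uncertain, and the part of read placement in these values was not tested.

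Inverted arms were also more common at IDR peaks of the cluster. An exact stretch of 15 bases followed by its reverse complement within the 301 bases around the summit was found at 48 of 175 IDR peaks (27.4%, 21.0 to 34.7) and at 168 of 2751 elsewhere (6.11%, 5.24 to 7.07). Among uncalled entries it was found at 3.43% in the cluster and 2.27% elsewhere. The smaller cluster had it at 7 of 69 IDR peaks (10.1%, 4.18 to 19.8). The strongest entries of replicate 1 put the cluster 16.3 percentage points above the rest, and those of replicate 2 put it 19.3 points above. The printed copies of families A and B hold such arms. Of the 175 IDR peaks, 49 lay on family A and 16 on family B, against 119 and 59 of the 2751 elsewhere. How many of the 48 lay on these families is not given here, so the arms are no separate result from the repeats.

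Family A linked 47 of the 175 IDR peaks, and 49 IDR peaks of the cluster lay on 1 of its copies. The nuclear genome held 407 matches to family A, of which 109 (26.8%) were in the cluster, or 28.7 per Mb against 3.09 per Mb elsewhere. Because the family was built from IDR peaks of the cluster, copies less like those are under-counted. For the same reason a cluster copy that carries a peak was more sure to enter, so the share of cluster copies with a peak is raised by construction and is not a result against the rest. Of the 43 cluster copies over 220 bases, 36 had an IDR summit within 150 bp (83.7%, 69.3 to 93.2). Outside, where no peak entered the rule, 75 of 124 had one (60.5%, 51.3 to 69.1). Among cluster copies of 220 bases or less, 2 of 66 had one. The long cluster copies with a strong entry numbered 34 in replicate 1 and 33 in replicate 2.

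Some family A copies held a pair of peaks. Of the 38 cluster copies with an IDR summit, 13 had a pair of summits, and 12 pairs of neighbouring family A summits lay 199 to 320 bp apart, with a median of 201.5 bp. This spacing was not particular to the repeat: 11 pairs of IDR peaks off family A had a median of 203 bp, and no summits of the whole candidate list lay closer than 199 bp. An example is the pair at IV 13814605 and IV 13814805, whose signals were 535 and 482. By place, 31 of the 49 summits were intergenic, 18 lay in introns of protein-coding genes and 0 in exons. The GC content of the 201 bases around the summit had a median of 50.7%, against 32.4% over the cluster. The median relative signal, the replicate's signal divided by its median at nuclear IDR peaks, was 1.23 ± 0.300 (SD, n = 2) in the cluster and 1.74 ± 0.0481 (SD, n = 2) elsewhere.

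Family B was rarer. It had 143 matches, 19 of them in the cluster, and 16 of those 19 carried an IDR summit (84.2%), a share that its making from cluster peaks also raises. Elsewhere 59 of 124 did (47.6%). Cluster copies were longer, with a median of 246 bases against 130.5, and among copies over 220 bases the counts were 11 of 12 and 22 of 28. The median relative signal of its 16 cluster peaks was 1.76 ± 0.155 (SD, n = 2).

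The strongest peaks of the cluster sat at genes for small structural RNAs. An snRNA, tRNA or snoRNA gene lay within 250 bp of 33 of the 175 IDR peaks. These RNAs act in splicing, translation and RNA modification. Counted by gene, an IDR summit lay within 250 bp of the 5' end of 6 of 8 snRNA genes (75%, 34.9 to 96.8), 19 of 32 tRNA genes (59.4%, 40.6 to 76.3) and 6 of 9 snoRNA genes (66.7%, 29.9 to 92.5). Outside the cluster the counts were 59 of 91, 290 of 580 and 94 of 337. None of the 10 microRNA genes had one (0%, 0 to 30.8). Genes of 1 family can share reads. Several snoRNA peaks also lay on the repeats: those at IV 14780753 and IV 15234417 on family B copies, and those at IV 15649408 and IV 16593060 on family A copies. These peaks enter both the snoRNA and the repeat counts.

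The peak with the highest signal had its summit at IV 14327183, 62 bp upstream of the 5' end of the snoRNA gene Y67A10A.14 (WBGene00045163, IV 14326948 to 14327121, minus strand). Its signal was 2408 in replicate 1 and 3033 in replicate 2, which is 34.7 and 39.4 times the median IDR peak of the replicate, or 37.1 ± 3.29 (SD, n = 2). From the 5' end of the piRNA gene 21ur-7591 it was 230 bp downstream, so it also counts as near a piRNA gene. The pooled signal was 5341, and that of the next peak was 1408. The latter lay in an intron of pkd-2, which encodes a polycystin cation channel. Its summit, at IV 15234417, was 29 bp upstream of the snoRNA gene Y73F8A.1175 and 30 bp upstream of 21ur-1009, on a family B copy. Its relative signal was 10.2 in replicate 1 and 9.33 in replicate 2. The snoRNA peak at IV 16593060 also lay on a family A copy, that printed second above.

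The tRNA gene Y37A1B.t1 had the next strongest peak, with a summit 22 bp upstream of its 5' end and relative signals of 9.30 and 9.89. The other strong tRNA peak, at Y105C5A.t2, had its summit at the 5' end itself and relative signals of 5.56 and 4.94. The tRNA peaks were otherwise near the middle of the range: their median relative signal was 0.863 ± 0.0330 (SD, n = 2), and their signals ran from 86.1 to 1406.

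Most snRNA genes with a peak encode SmY RNAs, small RNAs linked to spliced leader trans-splicing in nematodes. They were smy-8, smy-9, smy-10, smy-11 and smy-12, and Y57G11C.35 was the remaining one. The summits at smy-8, smy-9, smy-10 and smy-11 lay 41, 32, 65 and 56 bp upstream of the 5' ends. At Y57G11C.35 the summit lay 33 bp upstream, and the relative signal was 6.74 in replicate 1 and 8.01 in replicate 2. At smy-8 it was 5.86 and 6.75, and at smy-9 it was 4.20 and 5.29. In each of these 3 replicate 2 gave the higher value. The median of the 6 snRNA peaks was 4.00 ± 0.647 (SD, n = 2), against 0.863 for the tRNA class.

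**Figure D2:**
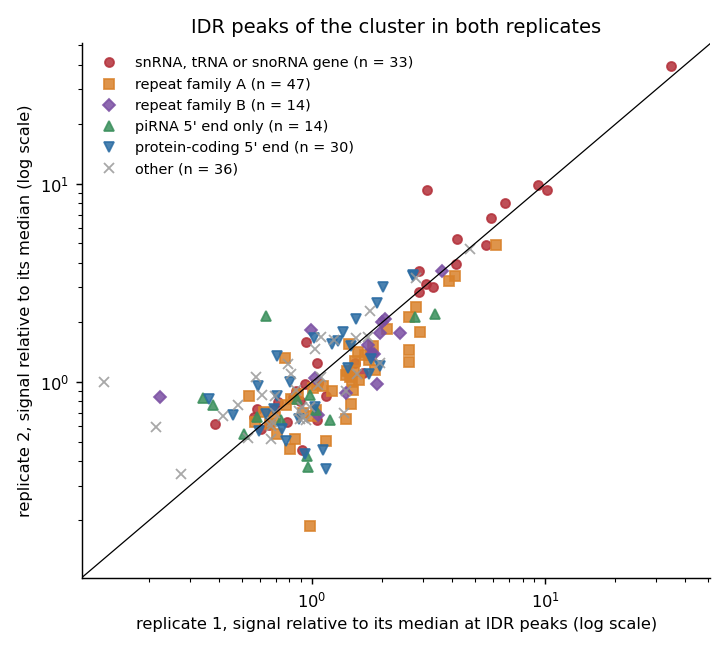
Signal of each IDR peak of the cluster in replicate 1 (horizontal) and replicate 2 (vertical), divided by that replicate's median at nuclear IDR peaks, on log scales, for the 174 peaks with an entry in both. Colours and shapes give what the summit lay at, and the line marks equal values. The strongest snRNA, tRNA and snoRNA peaks lie near the line, up to 34.7 and 39.4, except a summit in pkd-2 at 3.11 and 9.33 that took its replicate 2 value from the entry of its stronger neighbour.

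Both replicates held an entry at nearly every IDR peak, which the IDR filter itself favours, since it keeps regions ranked alike in both. The values in this paragraph are therefore descriptions and no support for the peaks. Of the 175 IDR peaks, 174 were overlapped by an entry of replicate 1 and 175 by an entry of replicate 2. The peak without one, upstream of the GTPase gene arf-6, had a signal of 89.2. Of the 846 uncalled entries, 579 (68.4%) were matched in replicate 1 and 589 (69.6%) in replicate 2. Ranked among the replicate's strongest entries were 156 IDR peaks in replicate 1, 154 in replicate 2 and 140 in both. Spearman's rho between the replicates was 0.76 over the 174 peaks and 0.40 over the 392 uncalled entries with both values. Some neighbouring summits shared 1 replicate entry, 29 IDR peaks in replicate 1 and 23 in replicate 2.

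IDR peaks were scarce directly at piRNA 5' ends. The cluster holds 11534 annotated piRNA genes, 5769 on the plus strand and 5765 on the minus strand, and 38.0% of its bases lie within 100 bp of a 5' end. Of the 175 IDR summits, 17 (9.71%) lay within 100 bp, against 232 of the 846 uncalled summits (27.4%). Within 250 bp the shares were 36.0% of IDR summits (63, interval 28.9 to 43.6), 50.1% of uncalled summits and 60.5% of bases. From 251 to 500 bp the order turned: 26.9% of IDR summits lay there, against 11.3% of uncalled summits and 10.5% of bases. Within 1000 bp the shares were 73.7%, 66.0% and 78.6%.

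**Figure D3:**
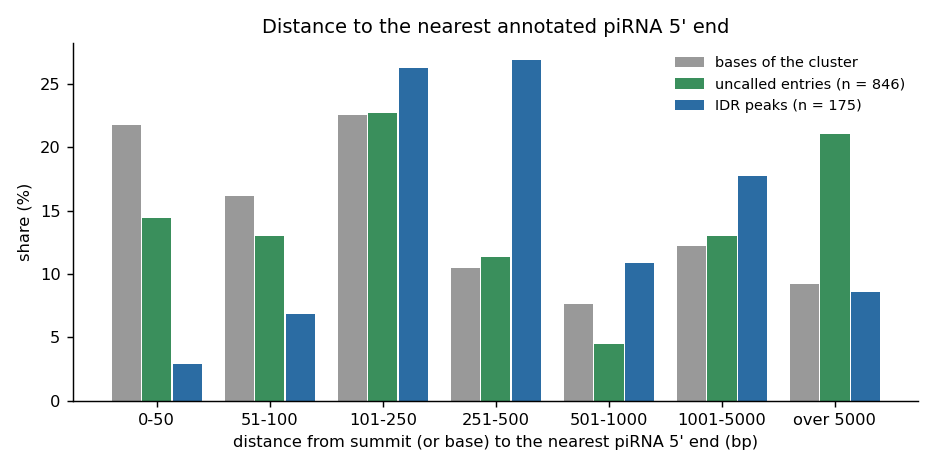
Share of IDR peaks, uncalled entries and bases of the cluster by distance to the nearest annotated piRNA 5' end. In the 0 to 50 bp class the IDR peaks stand at 2.86%, the uncalled entries at 14.4% and the bases at 21.8%, and from 251 to 500 bp the IDR peaks stand highest at 26.9%.

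The order of IDR peaks and uncalled entries held for low-copy sequence and not for repeats. Within 100 bp of a 5' end lay 9 of the 92 IDR peaks with fewer than 10 loci (9.78%, 4.57 to 17.8), against 227 of 767 uncalled entries of that kind (29.6%, 26.4 to 33.0). Within 250 bp the shares were 26.1% and 52.0%. At 10 or more loci the IDR peaks stood higher, with intervals that overlap: 8 of 83 (9.64%, 4.25 to 18.1) against 5 of 79 uncalled entries (6.33%, 2.09 to 14.2) within 100 bp. Within 250 bp these were 47.0% and 31.6%.

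The 63 IDR summits within 250 bp of a 5' end lay mostly downstream of it, with 16 upstream and a median position of 138 bp downstream. Repeats lay farther downstream than the rest: the 39 summits with 10 or more loci had a median of 152 bp and 7 upstream, and the 24 with fewer loci a median of 76 bp and 9 upstream. Over all called entries the median was 94 bp, and 28.5 bp without those of 10 or more loci. Uncalled summits in that range were spread more evenly, with 196 of 424 upstream and a median of 13 bp.

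Few piRNA genes had an IDR summit nearby. Within 250 bp of the 5' end there was one for 97 of the 11534 cluster genes (0.841%, 0.683 to 1.02), 44 on the plus strand and 53 on the minus strand. The share over all 15363 piRNA genes of the genome was 0.807%. In the smaller cluster it was 12 of 2807 (0.428%, 0.221 to 0.746). Several genes can share 1 summit, since the 97 genes correspond to 63 summits.

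At 14 of the IDR peaks a piRNA 5' end was the nearest listed feature, with no snRNA, tRNA or snoRNA gene, repeat or protein-coding 5' end in reach. Other noncoding RNA genes were not screened for. The signals of these 14 ran from 89.2 to 401, with a median relative signal of 0.826 ± 0.115 (SD, n = 2). The strongest, at IV 14445570, lay 216 bp downstream of 21ur-916 and 1387 bp upstream of tra-3, a calpain protease gene of the sex determination pathway. It had a relative signal of 3.37 in replicate 1 and 2.21 in replicate 2. The next, at IV 16181231, lay 176 bp upstream of 21ur-13200 and had 2.76 and 2.12. The one at IV 15915260, 179 bp upstream of 21ur-9448, differed between the replicates, at 0.633 and 2.16.

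The piRNA motif was absent from the windows under IDR peaks. Upstream of the cluster's piRNA genes it was common: 3901 of 11534 (33.8%) had CTGTTTCA in the 60 bases before the 5' end, on the strand of the gene, at a median start of 46 bp. The share was 39.8% in the smaller cluster and 12.9% at other piRNA genes. On both strands the 8 letters occurred 0.966 times per kb in the cluster and 0.0738 times per kb in the rest of the genome, and 17.7% of 18905 adjoining 201-base windows of the cluster held them. Of the 175 windows of that size centred on IDR summits, 0 did, which allows a share of up to 1.71% (3 divided by 175). Centred 500 bp to either side, 65 of 350 did (18.6%). Uncalled summits had 11.9%, and their flanks 16.4%. All 223 called entries together had 2.69%, from 6 of the weaker neighbours.

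Base composition moved with this result. The median GC content of the 201 bases was 45.3% at IDR summits, 34.3% at uncalled summits and 32.4% over the whole cluster, and outside the cluster it was 44.3% and 35.8%. The 92 IDR windows with fewer than 10 loci also held 0 motifs, with 15.8% in their flanks and a median GC content of 42.3%. The part of base composition in the absence of the motif was not tested. Among the 97 piRNA genes near an IDR summit, 28 (28.9%) had the motif upstream.

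**Figure D4:**
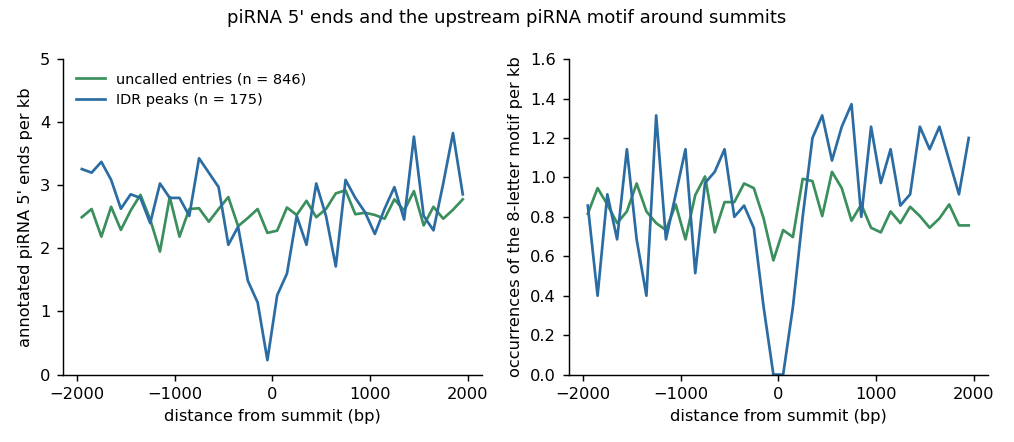
Annotated piRNA 5' ends per kb (left) and occurrences of CTGTTTCA on either strand per kb (right) in 100 bp steps around IDR and uncalled summits of the cluster. Within 100 bp of IDR summits both curves dip, to a mean of 0.743 piRNA 5' ends and 0 motifs per kb, against 2.90 and 0.937 beyond 1000 bp.

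Other letters were frequent under the peaks. Over all 6-letter sequences on both strands within 50 bp, CCGACA exceeded its flanks most, at 58 of 175 IDR peaks (33.1%) against 3.71% of flanking windows. It occurs in the second and the third of the family A copies printed above, in the second of the family B copies and in the windows at IV 14327183 and IV 14445570. Among the 92 low-copy peaks it stood at 18.5% against 5.43%, and among 2170 low-copy IDR peaks outside the cluster at 11.6% against 3.04%. In the 92 low-copy peaks GACGCA exceeded its flanks most (15.2% against 1.09%), and outside the cluster it stood at 14.2% against 2.14%. These letters were picked for their counts in the cluster, so the values outside are the ones that did not enter the choice.

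The number of peaks along the cluster followed the number of piRNA genes weakly at most. Over 38 bins of 100 kb, Spearman's rho with annotated piRNA genes was 0.21 for called entries, 0.19 for IDR peaks and -0.08 for candidate entries. For the strongest entries it was 0.08 in replicate 1 and 0.18 in replicate 2. The bins are neighbours on 1 chromosome and share both libraries, so these are descriptions. IDR peaks with fewer than 10 loci gave 0.07 and those with 10 or more 0.17. The counts of family A copies per bin gave 0.50 with the latter. Family A was built from IDR peaks of the cluster, so this value is raised by construction. It cannot be set against the rho with piRNA genes. piRNA genes and protein-coding genes were arranged in opposite ways, with a rho of -0.57. Between the replicates the counts of strongest entries per bin had a rho of 0.88.

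Called entries per bin ran from 1 to 13, with a median of 5. The bin from 0.3 to 0.4 Mb after the left edge had 13 called of 42 entries, and 287 piRNA genes. The bin from 2.2 to 2.3 Mb had 12 of 41 and 380 piRNA genes. Bins starting at 1.2, 1.3 and 2.4 Mb had 11 each. The fewest, 1 each, were in the leftmost bin with 24 piRNA genes and in the bin from 0.4 to 0.5 Mb with 290. A further 5 bins had 2 called entries each, among them the bin with the most piRNA genes, from 2.5 to 2.6 Mb, which held 486 of them, 7 candidate entries and 2 called.

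**Figure D5:**
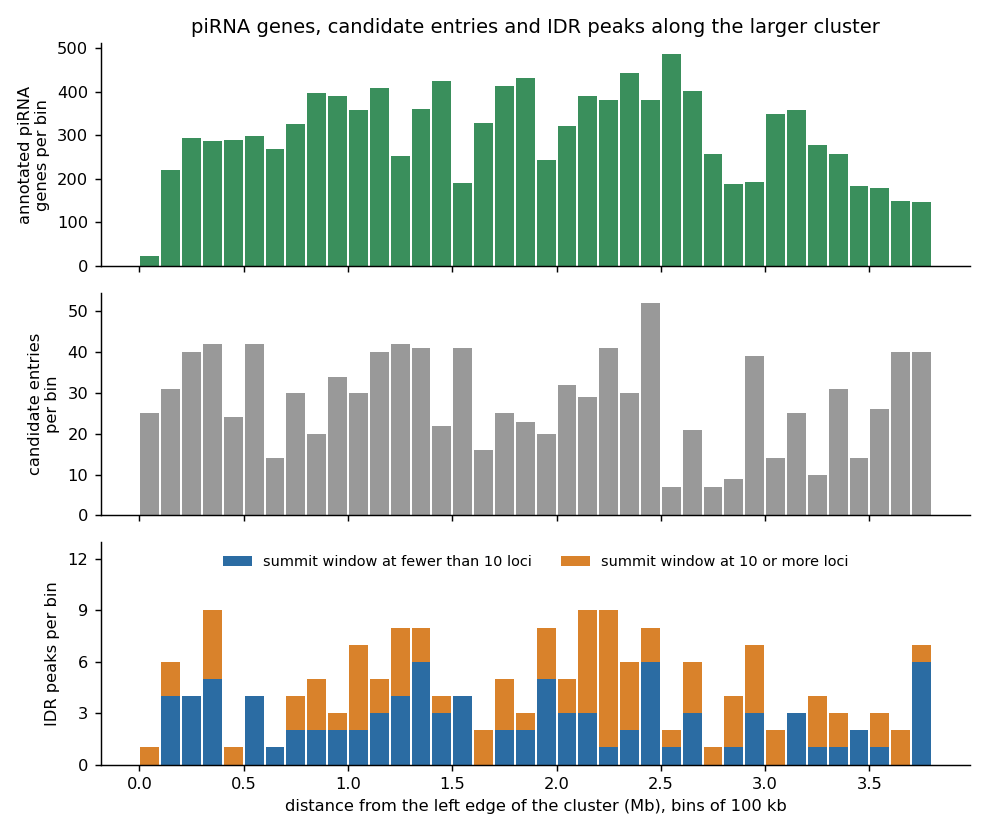
Annotated piRNA genes (top), candidate entries (middle) and IDR peaks split by copy number of the summit window (bottom) in 38 bins of 100 kb, by distance from the left edge of the cluster. The bin with the most piRNA genes, 486, had 2 IDR peaks, and the 3 bins with the most IDR peaks, 9 each, had 287, 390 and 380 piRNA genes.

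A protein-coding 5' end was the listed feature at 31 IDR peaks, after snRNA, tRNA and snoRNA genes and repeats had been taken out. Counted by gene, 45 of the 480 protein-coding genes of the cluster (9.38%, 6.92 to 12.3) had a 5' end with an IDR summit inside 500 bp, against 7.45% of all 19971. The 31 peaks had a median signal of 126 and a median relative signal of 1.03 ± 0.0496 (SD, n = 2). The strongest 3, named after their values were seen, lay 125 bp upstream of ntl-11, a subunit of the CCR4-NOT deadenylase, 242 bp upstream of eelo-2 and 419 bp upstream of hsp-1, an Hsp70 chaperone gene. Their relative signals were 2.72 and 3.46, 2.70 and 3.44, and 2.01 and 3.03 in replicates 1 and 2. By place, 62.3% of IDR summits were intergenic and 2.86% in coding exons, whereas coding exons make up 15.9% of the cluster and held 17.6% of uncalled summits.

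A further 29 IDR peaks lay at none of these features, among which other noncoding RNA genes were not counted. The strongest was in an untranslated exon of lin-66, a gene of the heterochronic pathway, at IV 13893336, 360 bp upstream of 21ur-10153. Its window matched 1 locus, and its relative signal was 4.75 in replicate 1 and 4.70 in replicate 2. Of the 5 strongest peaks with no RNA gene and no protein-coding 5' end within 500 bp, 3 were on family A copies (IV 13855699, 16808773 and 15950149) and 1 on a family B copy in an intron of ptp-5.2. The remaining one, at IV 17281401, 2442 bp downstream of the hsp-1 5' end, had a signal of 235.

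Genes that make or load piRNAs were looked up as well, wherever they lie. Of 23 listed, 21 carried that name in the annotation, and 3 had an IDR summit within 500 bp of a 5' end, beside the 7.45% of all protein-coding genes. They were snpc-4 itself, snpc-3.4, which encodes another SNAPc subunit, and tofu-6, which acts in piRNA precursor processing. The relative signals were 0.988 and 0.854 at snpc-3.4 and 0.412 and 0.617 at tofu-6 in replicates 1 and 2. At snpc-4 they were 0.144 and 1.32, so the replicates differed widely. The transgene also carries this gene, and each value came from the overlapping entry with the nearest summit. The part of either in the difference was not tested. No IDR summit lay at prg-1, which encodes the piRNA-binding Argonaute, or at prde-1, tofu-4 and tofu-5, whose proteins act with SNPC-4 at piRNA genes.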

How the data were processed

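Values came from the authors' deposited region lists in build ce11: a candidate list of the pool and of each replicate, with 30000 entries apiece, and 2950 thresholded entries, 2926 of them nuclear. The authors' deposited signal per region is their peak caller's score. The other deposited unit is the summit, given by the authors as its distance from the region's first base and converted here to 1-based positions. Per the deposited listing, regions were scored against a control, and the thresholded list was made from the 3 candidate lists. The sources used here do not name the aligner, the peak caller or the threshold on IDR. The control library was not analysed here, and the ce10 lists were not used. Read counts are not given, so depth and the precision it gives are unknown.

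Samples were grouped by their labels as biological replicates 1 and 2 of 1 group. Nothing further says that they came from separate cultures, so the spread may be partly technical. An entry was called if it overlapped a thresholded region by at least 1 base. Replicate signals came from the overlapping entry with the nearest summit and were divided by the replicate's median at nuclear IDR peaks (69.3 and 77.0). RefSeq supplied the genes and sequence (WBcel235). Both clusters were bounded by 100 kb bins holding at least 20 piRNA genes, with breaks of up to 300 kb allowed. All 151-base windows were searched with blastn 2.17.0 (E-value up to 1e-06, word size 11). Families were linked at E-values up to 1e-04 over at least 40 bases, and their copies were merged across gaps of up to 50 bases. Each IDR peak was given to 1 class in the order snRNA, tRNA, snoRNA, family A, family B, other repeated sequence, protein-coding 5' end (500 bp), piRNA 5' end (250 bp). Shares carry exact Clopper-Pearson intervals at 95%. The limits of 1.71% and 7.69% are instead 3 divided by the number examined, a 1-sided approximation that lies below the exact upper ends. The functions were tested on simulated data with known answers. Analyses ran in Python 3.11.15 with pandas 2.3.3 and scipy 1.17.1.

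The members, gene list, tests and alternatives were chosen with earlier results of these data known. Regions to name were the 10 strongest IDR peaks, the 10 strongest within 250 bp of a piRNA 5' end, the 5 strongest with no RNA gene and no protein-coding 5' end within 500 bp, the 3 strongest at each RNA class and at protein-coding 5' ends, the bins with most and fewest calls, and the entries at the edges and the threshold. Not all are printed. The copy counts, inverted arms, families and 6-letter counts were added after the data had been seen.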

Additional observations from a re-analysis of the deposited data

How the results depend on the processing

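Values are log2 ratios for densities and signal, percentage points for proximity, motif and copy results, and rho for bins. In the lists of single replicates, a called entry is itself among that replicate's strongest, and neighbours that touch one are left out. The like pooled values are those with IDR entries alone, such as a called share of 16.4%. With the lists of single replicates, the called share ranged from 16.7 to 16.9% (main value 20.9%), the density ratio of candidates from -0.16 to -0.15 (-0.09), that of called entries from 0.64 to 0.66 (0.61), the signal difference from -0.017 to 0.021 (-0.10), which reversed its sign with replicate 1 alone, the bin correlation from 0.081 to 0.18 (0.21), piRNA proximity from -27.6 to -20.8 (-23.3), summit position from 96 to 102 bp (94), the motif share from -16.2 to -14.6 (-14.8) and the replicate match from 99.6 to 100% (99.6%). The multi-copy difference ranged from 20.8 to 26.8 (26.3), the inverted-arm difference from 16.3 to 19.3 (21.3) and that of long family A copies from 13.7 to 22.7 (23.2). The family A difference is raised by how the family was built, so its values are no result against the rest. With the stronger of the thresholded regions, the called share was 11.97%, the called density 0.80 and the summit position 69 bp. With 1 entry per region, the called share was 20.2%, the called density 0.59 and the candidate density -0.10. Without entries near other RNA genes these were 18.0% and, for called density, 0.60, and the motif share was -12.9. At 100 bp the summit position was 22 bp, and at 1000 bp it was 134 bp with a proximity of -6.42. Bins of 50 and 200 kb gave rho values of 0.092 and 0.35. The motif share was -7.62 within 50 bp, -21.3 within 250 bp and -22.9 with the 7 letters TGTTTCA. A replicate match over at least 50% of both regions fell to 80.7%, and with the strongest replicate entries only to 78.0%. The listed pathway genes remained 3 at 250 bp.

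Alternatives chosen after seeing the data follow. With IDR entries alone, the called share was 16.4%, the called density 0.69, the summit position 138 bp and the motif share -18.6. Without entries of 10 or more loci, these were 14.6%, 0.13, 28.5 bp and -10.3, the candidate density was -0.19, the signal difference -0.19, the bin correlation 0.061 and the proximity -28.5, and with both choices the called density was 0.11. With a minimum of 50 loci the multi-copy difference was 20.6, with arms of 20 bases the inverted-arm difference was 16.5, and with copies over 150 bases the family A difference was 11.8. Beyond what their own construction sets, the cause of these moves was not tested. Of 74 alternative values, 24 counted as the same, 49 as moved and 1 as reversed in sign. The measure was the spread between replicates, which with 2 replicates is itself poorly known. The single-replicate values that give this spread are among the 74. The pathway count has no such spread and counted as the same because it did not change. Depth is unknown, so no floor on what was detectable can be given. No paired analysis was possible because there was 1 group.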
